A study of Mus musculus with 8 samples.

Results

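The genes described here encode the machinery that copies DNA in S phase. The set was a named list of 40 genes, and its members were all probe sets that the platform annotation assigned to exactly 1 symbol on that list. This gave 87 probe sets for 39 of the 40 genes. Of these probe sets, 75 passed the filter on low values, and all 39 genes kept at least 1. Chaf1a was the symbol of none of the probe sets used. The tested genes numbered 13256 in all, from 27022 tested probe sets of 45101 on the array.

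The cells were subcutaneous preadipocytes, the fibroblast-like cells from which fat cells form, isolated from C57BL/6 pups on day 2 after birth. All 8 samples had the genotype Dicer lox/lox, in which the gene for the microRNA-producing ribonuclease Dicer can be cut by Cre recombinase. In 4 control samples the cells were given the adenovirus Ad5CMVeGFP, which expresses green fluorescent protein. In 4 Dicer knockout samples they were given Ad5CMVCre-eGFP, which expresses Cre and green fluorescent protein. Both viruses were used at 750 MOI (multiplicity of infection, the ratio of infectious virus to cells) with 4 µg/mL polybrene. RNA was taken 4 days later for 1 Affymetrix array per sample. The study asked what losing Dicer changes in these cells. Both groups carry the floxed alleles, and no sample received the Cre virus without them, so effects of Cre or of its virus cannot be told apart from those of losing Dicer. The labels do not say whether pups were pooled or whether the numbered replicates 1 to 4 came from separate cultures, so p-values measure only the spread between these samples.

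DNA replication starts when the origin recognition complex, Cdc6 and Cdt1 load the ring-shaped Mcm helicase onto DNA in G1 phase. At the start of S phase the ring is activated by Mcm10, Cdc45 and the GINS complex, and polymerases then copy both strands with the help of the sliding clamp PCNA, while ribonucleotide reductase and thymidylate enzymes supply the building blocks. Most of these genes are transcribed under E2F transcription factors, which the retinoblastoma protein holds back in resting cells, whereas many genes of mitosis are switched on later through promoter elements named CHR. Preadipocytes in culture divide, and they leave the cell cycle when they become fat cells.

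To show the promoter feature that many of these genes share, the 250 bases before the transcription start are given for 4 members. They are from RefSeq, build GRCm38.p6, written 5′ to 3′ on the strand of the gene. Capitals mark matches to an E2F site, searched on both strands as TTTCCCGC, TTTCGCGC, TTTGCCGC or TTTGGCGC. The Mcm6 stretch (chr1:128359706-128359955, minus strand) held 3 matches, 2 of which overlap, and those of Mcm7 (chr5:138171884-138172133, minus strand) and Uhrf1 (chr17:56304063-56304312, plus strand) held 1 each. Ung (chr5:114130185-114130434, plus strand), the member with the largest difference between the groups, is shown beside them and held 0 matches. Mcm7 and Uhrf1 each have 2 promoter windows in RefSeq; the one with an E2F match is shown, and the other held none.
Mcm6: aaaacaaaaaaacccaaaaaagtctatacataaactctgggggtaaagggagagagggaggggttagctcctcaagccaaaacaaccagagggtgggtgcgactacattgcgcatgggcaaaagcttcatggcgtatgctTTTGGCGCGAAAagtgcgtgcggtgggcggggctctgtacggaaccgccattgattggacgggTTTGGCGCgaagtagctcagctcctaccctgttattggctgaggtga
Mcm7: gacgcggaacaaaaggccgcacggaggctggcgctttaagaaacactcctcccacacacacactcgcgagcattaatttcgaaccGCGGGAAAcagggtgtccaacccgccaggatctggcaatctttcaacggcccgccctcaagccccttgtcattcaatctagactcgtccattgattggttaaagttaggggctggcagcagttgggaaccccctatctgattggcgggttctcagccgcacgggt
Uhrf1: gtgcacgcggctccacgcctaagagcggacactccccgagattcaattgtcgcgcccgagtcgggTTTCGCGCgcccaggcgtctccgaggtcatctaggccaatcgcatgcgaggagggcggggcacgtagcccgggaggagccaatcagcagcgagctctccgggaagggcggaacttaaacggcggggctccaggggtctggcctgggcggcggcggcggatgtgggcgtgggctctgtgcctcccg
Ung: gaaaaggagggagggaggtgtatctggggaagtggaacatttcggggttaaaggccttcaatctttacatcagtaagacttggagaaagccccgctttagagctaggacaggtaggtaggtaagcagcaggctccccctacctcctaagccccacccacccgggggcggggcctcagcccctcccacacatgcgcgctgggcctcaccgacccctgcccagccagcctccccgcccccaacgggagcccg

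RefSeq promoter windows of 300 bases, from 250 before to 50 after the start, were at hand for 35 of the 40 listed genes. An E2F match lay in a window of 13 of these 35 genes (37.1%), against 704 of all 27025 genes with a window (2.6%). The CCAAT box, bound by NF-Y and searched as CCAAT on both strands, was found for 22 (62.9%), against 41.1% of all genes. The CHR element, searched as TTTGAA on both strands, was found for 3 (8.57%), against 20.2% of all genes. For a fixed list of 25 mitosis genes, 21 of which had a window, the same search found an E2F match in 1 (4.76%) and a CHR match in 15 (71.4%). A fixed list of 36 other replication factors, 29 of which had a window, held an E2F match in 11 (37.9%) and a CHR match in 6 (20.7%). The share with an E2F match is thus not particular to the members. E2F matches on opposite strands can overlap, and each motif was counted without regard to the others; a match is a description of the sequence, not a mapped binding site. Of the 13 members with a window match, 11 were below 0 in the comparison that follows (median log2 difference -0.10), and of 21 tested members without one 12 were (median -0.10).

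Mcm7 also carries microRNA genes. Among the 40 listed genes, 2 enclose RefSeq microRNA hairpins: Pold1 encloses that of miR-7053, and Mcm7 encloses 3 hairpins on its own strand, those of miR-106b, miR-93 and miR-25. The main mature products of the Mcm7 cluster are shown because their making needs Dicer while the host messenger RNA does not. Capitals mark the seed, bases 2 to 8, and miR-106b-5p (chr5:138165787-138165807) and miR-93-5p (chr5:138165574-138165596) share theirs, whereas miR-25-3p (chr5:138165332-138165353) has another. All lie on the minus strand of GRCm38.p6, and mature microRNAs were not measured by these arrays as used here.
mmu-miR-106b-5p: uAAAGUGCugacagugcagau
mmu-miR-93-5p: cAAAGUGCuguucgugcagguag
mmu-miR-25-3p: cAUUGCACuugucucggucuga

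The replication genes differed little between control and knockout cells. Of the 39 genes tested, 27 had a log2 difference (knockout minus control) below 0 and 12 above 0. That is 69.2% below 0, against 50.4% of all tested genes. Their median was -0.10, against -0.0020 for all tested genes. The extremes were Ung, the uracil-DNA glycosylase, at -0.44 and Rfc4, a clamp loader subunit, at 0.15. None passed limma's threshold of an adjusted p of 0.05 over all tested probe sets (0 of 39 genes, 0 of 75 probe sets), against 0% of all genes and 0.0037% of all probe sets. At an unadjusted p under 0.05, 1 of the 39 was reached, Ung, which was lower. Of all genes 3.93% reached that level, 1.94% being lower.

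Control and knockout arrays of the same number shared part of their deviations over all probe sets, so a second fit compared the arrays within each number (paired fit). The paired fit also called 0 of the 39 genes, against 0.0754% of all genes (10 genes), and 0 of the 75 probe sets, against 0.0481% (13 probe sets, where the unpaired fit had 1). At an unadjusted paired p under 0.05, 8 of the 39 (20.5%) were lower, namely Cdt1, Mcm2, Mcm7, Pole, Rfc5, Tk1, Uhrf1 and Ung, against 5.36% of all genes. None was higher at that level, against 4.96% of all genes. Of the 75 tested probe sets of the members, 10 reached that level in the paired fit. The other tested probe sets of Cdt1, Mcm2 and Uhrf1 did not, with unadjusted paired limma p-values of 0.183, 0.229 and 0.335. In 9 of the 39 (23.1%) the difference was below 0 in all 4 pairs, against 9.44% of all genes, and in 3 it was above 0 in all 4, against 8.64%. The former were Cdt1, Mcm2, Mcm3, Pold1, Rfc2, Rfc5, Tk1, Uhrf1 and Ung, and the latter Rfc4, Rrm2 and Msh6. These counts rest on the brightest probe set of each gene. Cdt1, Mcm2, Mcm3, Pold1, Rfc2 and Uhrf1 each had another tested probe set that was below 0 in only 2 or 3 pairs. Likewise, Rfc4 and Rrm2 each had another tested probe set that was not above 0 in all 4. In 0 of the 39 did the groups not overlap, against 2.52% of all genes (1.22% lower). These lists are described and were not tested as sets. In whole-culture RNA, fewer cells in S phase and less of these RNAs per cell cannot be told apart.

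The intervals give the sizes of difference that the arrays leave possible for each gene. The 95% interval of the unpaired difference lay within a 2-fold change in either direction for 39 of 39 genes, against 90.8% of all tested genes. It lay within 1.5-fold for 35 of 39 (89.7%), against 61.0%. The exceptions were Orc1, Pole, Uhrf1 and Ung. The median standard error was 0.13 on the log2 scale. The lowest bound was -0.88, for Ung, and the highest 0.56, for Dna2, a nuclease and helicase that trims Okazaki fragments.

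**Figure D1:**
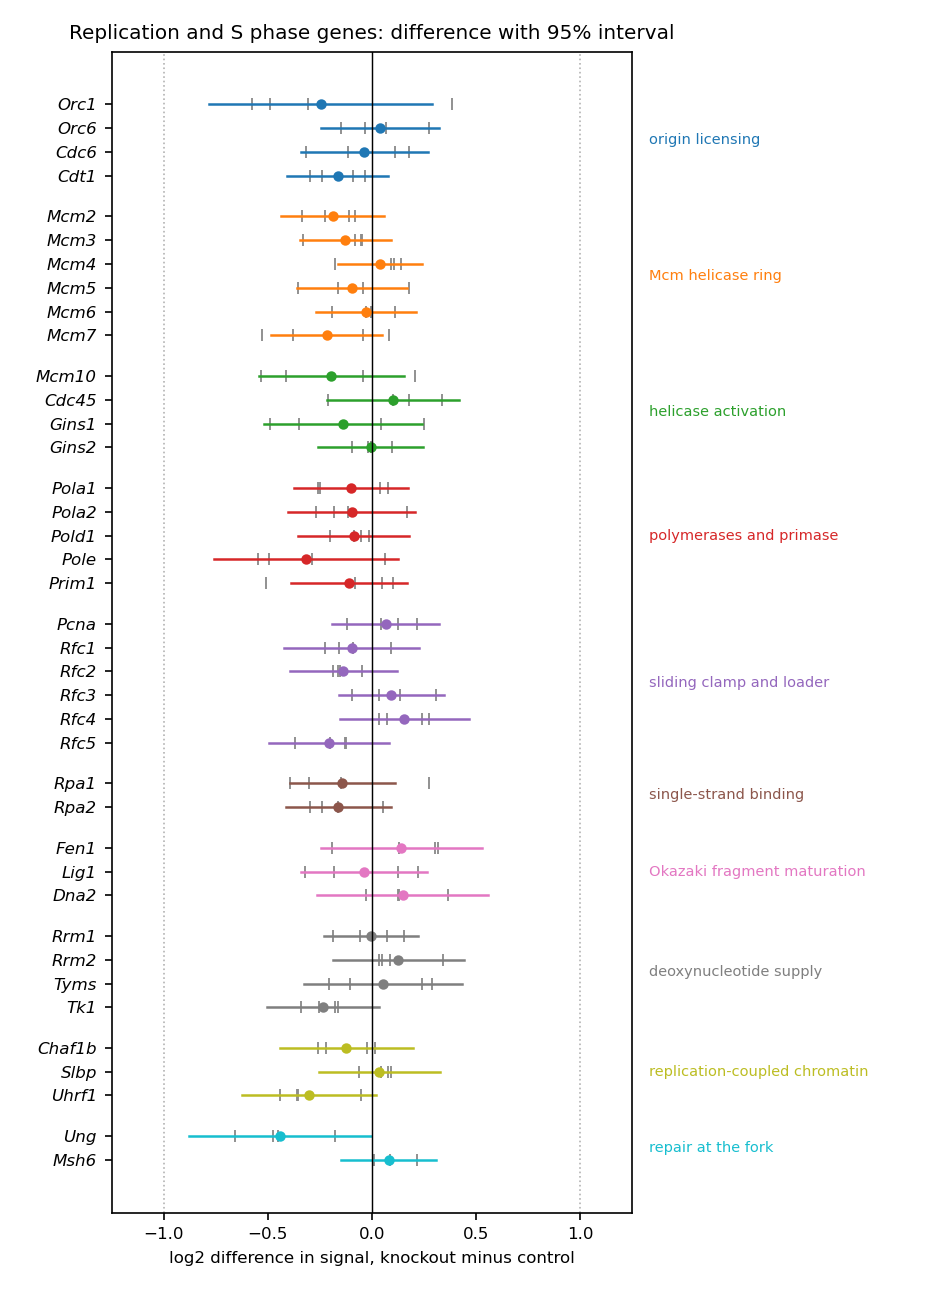
Log2 difference in signal, knockout minus control, for the 39 tested genes grouped by role. Points are the unpaired estimates, coloured bars their 95% intervals, grey ticks the differences of the 4 same-numbered pairs, and dotted lines mark a 2-fold change. Of the points, 27 lie below 0, and all 39 bars lie between the dotted lines.

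Among the 4 genes of origin licensing, 3 were below 0. Cdt1, which recruits the Mcm ring, had signals of 15940.2, 15577.7, 17197.8 and 17242.1 in controls 1 to 4. In knockouts 1 to 4, in the same order as for all genes that follow, they were 12973.7, 13182.8, 16151.8 and 16816.2. Each knockout array was below its same-numbered control, while the 2 highest knockout arrays were above the 2 lowest controls. The means were 16489 ± 857 and 14781 ± 1987 (SD, n = 4 each), a difference of -0.17 on the log2 scale (SE 0.11), with limma adjusted p-values of 0.999 unpaired and 0.546 paired. Orc1, the ATPase subunit of the origin recognition complex, had a log2 difference of -0.25 with the widest interval of the set, -0.78 to 0.29. Its pairs ran from -0.57 to 0.38, and its dimmer tested probe set differed in direction. Orc6 and Cdc6 had log2 differences of 0.04 and -0.04.

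Of the 6 subunits of the Mcm ring, 5 were below 0. Mcm7, the subunit whose gene hosts the microRNA cluster shown above, read 26854.8, 30365.4, 25274.8 and 25473.5 in controls and 26058.1, 21020.8, 19438.3 and 26938.2 in knockouts. Knockout arrays 2 and 3 lay below all controls, and knockout arrays 1 and 4 lay among them. The log2 difference was -0.22 (SE 0.12; limma adjusted p = 0.999 unpaired and 0.541 paired), and it was -0.13 without knockout 3 and -0.29 without knockout 4. The other 3 tested Mcm7 probe sets were also below 0, at -0.21, -0.13 and -0.01. Mcm2, which also carries histones past the fork, averaged 9290 ± 1096 in control and 8122 ± 620.3 in knockout cells (SD over 4 arrays each), a log2 difference of -0.19 (SE 0.11, below 0 in 4 of 4 pairs). Mcm3, Mcm5 and Mcm6 had log2 differences of -0.13, -0.10 and -0.03, and Mcm4 had 0.04. All tested probe sets of Mcm2, Mcm3, Mcm5, Mcm6 and Mcm7 were below 0, whereas those of Mcm4 differed in direction, at 0.04 and -0.11. For Mcm6 the dimmer tested probe set had a log2 difference of -0.21 (paired SE 0.07) where the brighter had -0.03.

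Of the 4 genes that turn the loaded ring into a working helicase, 3 were below 0. Mcm10, which helps the ring open origins, read 1212.2, 1673.4, 1534.5 and 1561.6 in controls and 1411.5, 1237.9, 1039.3 and 1513.3 in knockouts. The groups overlapped, and pair 1 ran against the other pairs. The log2 difference was -0.20 (SE 0.16, limma adjusted p = 0.999), and it was -0.10 without knockout 3. Another tested Mcm10 probe set, a dimmer one, had 0.095, and with the probe sets averaged the difference was -0.05. The GINS subunits Gins1 and Gins2 had log2 differences of -0.14 and -0.01, and Cdc45, which joins the ring to GINS, had 0.10.

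The 5 polymerase and primase genes of the set were below 0, from -0.09 to -0.32. Other subunits, tested among the other replication factors, lay on both sides, with Prim2 at 0.14, Pold3 at 0.10, Pole3 at 0.08, Pold4 at 0.07, Pole4 at 0.06, Pole2 at -0.03 and Pold2 at -0.17. Pole, the catalytic subunit of the leading-strand polymerase epsilon, read 3469.4, 2332.7, 2297.6 and 1695.8 in controls and 2440.7, 1573.2, 1867.4 and 1774.8 in knockouts. Control 1 was the highest array and knockout 2 the lowest, and pair 4 was the only one above 0. The means were 2449 ± 740.5 and 1914 ± 372 (SD, n = 4 each), a difference of -0.32 on the log2 scale (SE 0.20), with limma adjusted p-values of 0.999 unpaired and 0.463 paired. It was -0.14 without control 1 and -0.47 without control 4. Prim1, the primase subunit that starts each new strand, and Pola1 and Pola2, of the polymerase alpha that extends its primers, had log2 differences of -0.11, -0.10 and -0.10. Pold1, the catalytic subunit of the lagging-strand polymerase delta, had -0.09 and was below 0 in 4 of 4 pairs.

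The sliding clamp and its loader were evenly split, with 3 genes below and 3 above 0. Pcna, the clamp that holds polymerases on DNA, averaged 41687 ± 3547 in control and 43924 ± 7139.7 in knockout cells (SD over 4 arrays each), a log2 difference of 0.07 (SE 0.12). Rfc5, a loader subunit, read 9055.5, 9389.9, 6821.4 and 9000.0 in controls and 8263.8, 7246.1, 6256.8 and 7814.5 in knockouts. All knockouts were below 3 of the 4 controls, and control 3 lay among the knockouts. Its log2 difference was -0.21 (SE 0.13; limma adjusted p = 0.999 unpaired and 0.458 paired), -0.31 without control 3 and -0.13 without knockout 3. Rfc4 averaged 8990 ± 1633 in control and 9929 ± 1077 in knockout cells (SD over 4 arrays each). Its log2 difference was 0.15 (SE 0.14, above 0 in 4 of 4 pairs). The other tested Rfc4 probe set had 0.05 and was below 0 in 3 of 4 pairs. Rfc2, Rfc1 and Rfc3 had log2 differences of -0.14, -0.10 and 0.09.

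Of replication protein A, which coats unwound DNA, the set holds Rpa1 and Rpa2, both below 0; the subunit Rpa3, tested among the other replication factors, had a log2 difference of 0.06. Rpa2 read 3475.3, 3784.7, 3326.0 and 3776.7 in controls and 3612.7, 3190.8, 2964.5 and 3063.2 in knockouts. Knockout arrays 2, 3 and 4 lay below all controls, and knockout 1 lay among them. The log2 difference was -0.16 (SE 0.12, limma adjusted p = 0.999), and the exact permutation test gave a two-sided p of 0.0857. Rpa1 had a log2 difference of -0.14.

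Of the 3 enzymes that join Okazaki fragments, 2 were above 0. Fen1, the flap nuclease, read 4664.5, 7721.7, 5174.6 and 7628.1 in controls and 5837.0, 6760.3, 6403.1 and 8358.1 in knockouts. The controls fell into a low and a high pair, numbers 1 and 3 against 2 and 4, with the knockouts spread between and above them. The log2 difference was 0.14 (SE 0.18, limma adjusted p = 0.999), it was 0.01 without control 1, and it was -0.03 in replicates 2 and 4 alone. Another tested Fen1 probe set had -0.02. Dna2 had a log2 difference of 0.15 and Lig1, the DNA ligase that seals the joined fragments, -0.04.

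The 4 genes of deoxynucleotide supply were evenly split, with 2 below and 2 above 0. Tk1, the S phase thymidine kinase, read 5955.6, 5160.8, 4887.2 and 4993.2 in controls and 5311.7, 4056.1, 4313.7 and 4176.0 in knockouts. Knockout arrays 2, 3 and 4 lay below all controls, and knockout 1 was above all controls except control 1. The log2 difference was -0.23 (SE 0.12; limma adjusted p = 0.999 unpaired and 0.42 paired). Rrm2, the regulated subunit of ribonucleotide reductase, averaged 17432 ± 2688 in control and 19065 ± 3025 in knockout cells (SD over 4 arrays each), a log2 difference of 0.13 (SE 0.14). It was above 0 in 4 of 4 pairs, and its other tested probe sets had log2 differences of 0.25 and 0.18. Rrm1, the large subunit, had -0.0048 (SE 0.10). Tyms, thymidylate synthase, had 0.05 from a dim probe set, since the annotation gives another Tyms probe set several symbols and that one was not used.

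Uhrf1, which brings the maintenance methyltransferase to newly copied DNA, had one of the 3 largest differences. It read 10845.3, 7611.3, 8682.1 and 7585.9 in controls and 8463.2, 5916.7, 6381.1 and 7303.0 in knockouts. Every knockout array was below its same-numbered control, and 3 knockouts were below all controls. The means were 8681 ± 1530.5 and 7016 ± 1124 (SD, n = 4 each), a log2 difference of -0.30 (SE 0.15, or 0.09 paired), with limma adjusted p-values of 0.999 unpaired and 0.274 paired and a two-sided p of 0.114 by exact permutation. It was -0.19 without control 1 and -0.40 without knockout 1, and the other tested probe set had -0.13. Chaf1b, a subunit of the chromatin assembly factor, had -0.12, but its other, dimmer tested probe set had 0.29. Slbp, which binds the stem-loop of histone messenger RNAs, had 0.04.

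Ung, which removes uracil from DNA at the fork, differed most. It read 4336.0, 3991.1, 3932.8 and 2713.0 in controls and 3823.8, 2501.5, 2810.4 and 1962.6 in knockouts. Each knockout array was below its same-numbered control, both arrays numbered 4 were the lowest of their group, and the groups overlapped. The means were 3743 ± 709 and 2775 ± 782 (SD, n = 4 each), a log2 difference of -0.44 (SE 0.20, 95% interval -0.88 to -0.0050; limma adjusted p = 0.999). In the paired fit the standard error was 0.10 and the limma adjusted p 0.169, the smallest of the 39, and the exact two-sided permutation p of the unpaired arrays was 0.114. The difference was -0.29 without knockout 4 and -0.61 without knockout 1. Msh6, the mismatch repair protein that travels with PCNA, had 0.08 and was above 0 in 4 of 4 pairs.

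**Figure D2:**
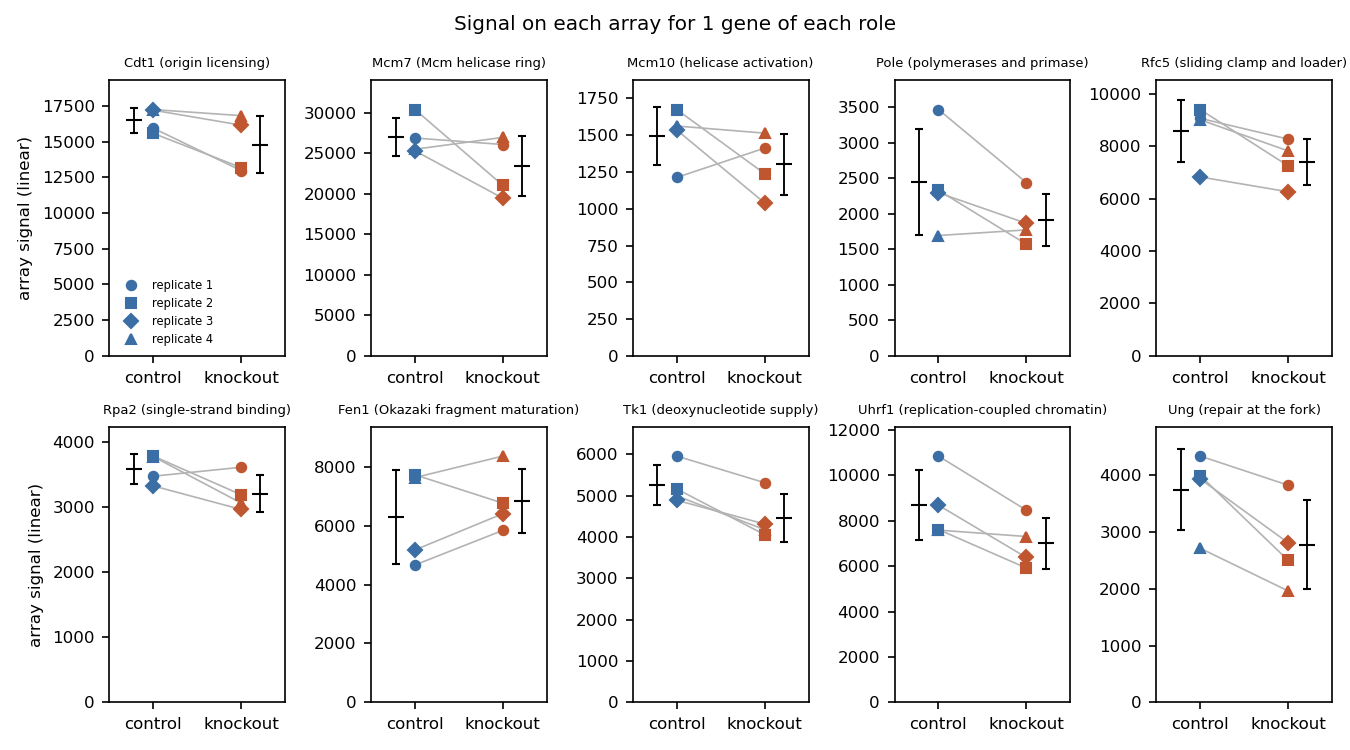
Linear array signal of 10 genes, 1 from each role, on the 4 control (blue) and 4 knockout (orange) arrays; symbols give the replicate number, grey lines join same-numbered arrays, and black bars are the mean ± SD of 4 arrays. In Cdt1, Rfc5, Tk1, Uhrf1 and Ung all 4 lines go down, and in every panel the groups overlap.

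Different probe sets of the same gene gave a check within the arrays. Of the 27 members with more than 1 tested probe set, 13 had all of them below 0 and 3, Rfc4, Rrm2 and Slbp, all above 0. In the other 11 they differed in direction, namely in Chaf1b, Dna2, Fen1, Gins1, Mcm10, Mcm4, Orc1, Pola2, Rfc1, Rfc3 and Rrm1. Over all 75 tested probe sets, 52 were below 0 and the median was -0.07. With a gene's tested probe sets averaged in place of the brightest, the median over the members was -0.05. In 0 of the 75 did the groups not overlap, against 2.46% of all tested probe sets.

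On each array the mean of the 39 genes moved by small amounts. Relative to the mean of all 8 arrays, on the log2 scale, it was 0.07, 0.07, -0.04 and 0.06 for controls 1 to 4, whereas knockouts 1 to 4 had -0.02, -0.06, -0.12 and 0.06. Control 3 lay among the knockouts and knockout 4 among the controls. The median difference of the members was -0.10, -0.06, -0.10 and -0.03 in pairs 1 to 4. It was -0.02 without control 1, -0.05 without control 4 and -0.13 without knockout 4, with 24 to 29 members below 0 whichever array was left out. The odd-numbered arrays had 18S ribosomal RNA signals of 5905.9 to 14007.2 and the even-numbered ones of 30583.9 to 43029.9, a split that crosses both groups. The mean difference of the members was -0.09 in the odd and -0.07 in the even pairs.

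Within the groups the members varied together to unequal degrees. Over the 8 arrays, each taken as its deviation from the group mean, the median correlation between 2 members was 0.14. With the mean of the others, 13 members correlated above 0.5, the highest being Rfc2 at 0.94, and 10 correlated below 0, the lowest being Ung at -0.44. These points share arrays and their scaling. Over all 8 arrays the tested genes most like the mean of the members were 2610507I01Rik, Qdpr, Haus4, Rpgrip1 and Ctps (Pearson correlations of 0.95 to 0.97). They were picked as the highest of all tested genes outside the members, over only 8 arrays and with the difference between the groups left in. Such values can arise by chance among so many genes, and no shared function was tested. Ctps makes the cytidine nucleotide CTP.

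The wider replication pathway was covered by fixed lists of genes outside the 39. Of 36 other replication factors, such as further polymerase and GINS subunits, 19 were below 0 and 17 above, with a median of -0.02, a mean of 0.0045, and a median of -0.08 without control 4. That list holds Rnaseh2b, a subunit of the nuclease that removes RNA primers, at 0.26 (SE 0.15, above 0 in 3 of 4 pairs). The other subunits of that nuclease, Rnaseh2a and Rnaseh2c, had -0.16 (SE 0.12) and -0.17 (SE 0.17), each below 0 in 4 of 4 pairs. Of 17 other genes of nucleotide synthesis, 13 were below 0, with a median of -0.05. Shmt1, which makes folate units for thymidylate, averaged 2857 ± 419 in control and 2243 ± 430 in knockout cells (SD over 4 arrays each), a log2 difference of -0.34 (SE 0.16, below 0 in 4 of 4 pairs). Genes of S phase chromatin (11, median -0.03) and of the S phase checkpoint and repair (14, median -0.01) were split in direction; the mean of the former was 0.0052, and the medians of the latter in the 4 pairs were all above 0. Brca1, of homologous repair, had -0.41 (SE 0.17), but its other tested probe sets had 0.29 and 0.43. Lsm11, of histone messenger RNA processing, had 0.29 (SE 0.18), and its other tested probe set had -0.51.

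Genes that control entry into S phase and genes of mitosis lay mostly above 0. Of 16 genes of G1/S control, 12 were above 0, with a median of 0.11, and of 24 mitosis genes 18 were above 0, with a median of 0.07. No difference between these lists and the replication members was tested. In the G1/S list Rb1, which encodes the retinoblastoma protein that restrains E2F, read 2139.0, 2404.7, 2501.9 and 2422.9 in controls and 2821.4, 3441.4, 3359.0 and 3247.2 in knockouts. All knockouts were above all controls, by 0.43 on the log2 scale (SE 0.12), with limma adjusted p-values of 0.999 unpaired and 0.153 paired, and the share of all genes whose groups did not overlap was 2.52%. Skp2, of the ubiquitin ligase that degrades G1 inhibitors, was the other gene of the list whose groups did not overlap, at 0.39 (SE 0.14). Of the 4 genes of the list below 0, Cdk2 (-0.22, SE 0.10) and Cdc25a (-0.15, SE 0.11) were below 0 in 4 of 4 pairs. In all, 2 of the 16 were below 0 in 4 of 4 pairs, against 9.44% of all genes. Above 0 in 4 of 4 pairs were 6 of the 16, against 8.64% of all genes. These 6 included the cyclin gene Ccna2 (0.24, SE 0.13). The cyclin gene Ccne2 had 0.36 (SE 0.21, above 0 in 3 of 4 pairs). E2f1, the E2F family's best-known activator, had -0.05 (SE 0.14), and the sign turned without control 1 or knockout 1 or 3. The G1 inhibitor Cdkn1a had 0.39 (SE 0.36, or 0.10 paired), with limma adjusted p-values of 0.999 unpaired and 0.215 paired. It was above 0 in 4 of 4 pairs, 0.27 to 0.51 in the paired fit with a pair left out, and 0.01 unpaired without control 1. In the mitosis list Ccnf, a cyclin that is the substrate receptor of a ubiquitin ligase, had 0.38 (SE 0.16). The G1/S median was 0.04 without control 1 and 0.18 without control 2, and the mitosis median 0.17 without control 1 and 0.02 without knockout 1. No gene of these 6 lists passed the threshold in either fit; the smallest paired adjusted p was that of Rb1.

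**Figure D3:**
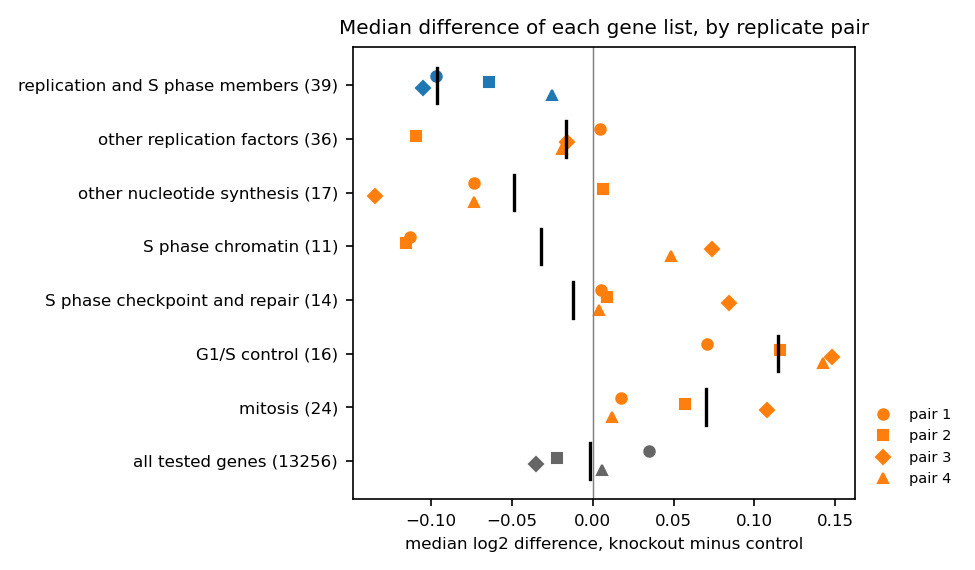
Median log2 difference, knockout minus control, of 7 gene lists and of all tested genes, with the number of genes in brackets. Symbols are the medians in each same-numbered pair and black lines the medians of the unpaired differences; the replication and S phase genes lie between -0.10 and -0.03 in the 4 pairs, the G1/S control genes between 0.07 and 0.15.

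The mean of the mitosis list was highest on the arrays numbered 1 of both groups, 0.18 in control 1 and 0.21 in knockout 1. On the other 6 arrays it was between -0.15 and 0.02. The replication members had 0.07 on control 1, level with control 2, and -0.02 on knockout 1. Mki67, a proliferation marker and 1 of the 24 mitosis genes, spanned 2615.6 to 9039.5 in controls and 3793.2 to 7584.5 in knockouts (log2 difference -0.06, SE 0.34).

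**Figure D4:**
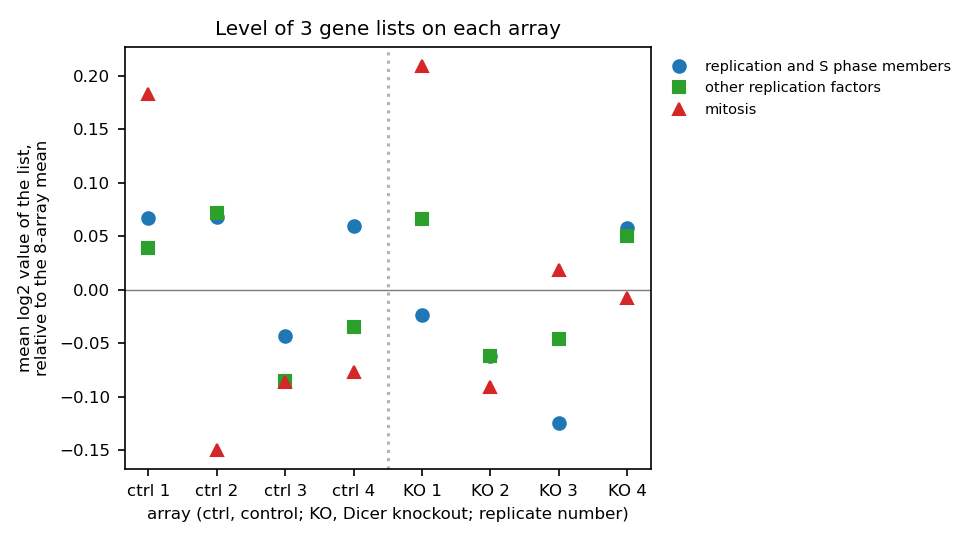
Mean log2 value of 3 gene lists on each of the 8 arrays, relative to the mean over all arrays. The replication and S phase genes (circles) range from -0.12 to 0.07, and the mitosis genes (triangles) are highest on both arrays numbered 1.

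The series as a whole frames these values. Median signals of the 8 arrays ran from 321.1 to 418.9, and the number of arrays limits the precision. Dicer1 averaged 1399 ± 477 in control and 1216 ± 130 in knockout cells (SD over 4 arrays each), a log2 difference of -0.15 (SE 0.20, and 0.06 without control 3), and the position of its probe sets relative to the excised segment was not checked. Hmga2, a target of let-7 microRNAs, stood 1.06 higher on the log2 scale (SE 0.16), with limma adjusted p-values of 0.283 unpaired and 0.0336 paired, and another Hmga2 probe set, at 1.37, was the 1 called in the unpaired fit (adjusted p = 0.0335). Of the preadipocyte markers, Pdgfra, Pdgfrb, Thy1, Cd34, Dlk1 and Dpt were above the filter on low values, and Dpp4 was below it; their summed signal was 124263.3 to 186751.8 in controls and 111416.7 to 163801.9 in knockouts. Among them Dlk1 had a log2 difference of -0.72, called lower in the paired fit (limma adjusted p = 0.0436), and the part of this in the differences of the replication genes was not tested. Markers of other cell types below that filter were Adipoq, Lep and Cidec (fat cells), Ptprc (leukocytes), Pecam1 and Cdh5 (endothelium) and Kcnj8 and Abcc9 (pericytes). Myog (muscle) and Krt5, Krt14 and Cdh1 (epithelium) were also below it. Above it were Kdr and Tek (endothelium), Cspg4 and Rgs5 (pericytes) and S100b and Sox10 (Schwann cells). Their median log2 differences were 0.04, -0.12 and -0.20 in that order of cell types. Markers of these types above the filter included Fabp4 of fat cells, which averaged 3143 ± 795 in control and 4999 ± 2085 in knockout cells, a log2 difference of 0.55 (SE 0.34, above 0 in 3 of 4 pairs). The muscle genes Acta1, Myod1 and Des had 0.53 (above 0 in 4 of 4 pairs), 0.55 and 0.03. Of the 5 macrophage and leukocyte markers above the filter, 3 were below 0 and 2 above, with a median of -0.01. Among them Cd68 had -0.37 (below 0 in 4 of 4 pairs) and Adgre1 had 0.22 (above 0 in 3 of 4 pairs). None of these genes was called in either limma fit. The summed signals ran from 2237.4 to 4145.3 in controls and 2041.3 to 6450.4 in knockouts for the fat cell list (1 of 4 annotated genes above the filter), from 1521.4 to 3031.8 and 2425.3 to 3107.2 for muscle (3 of 4), and from 3512.6 to 4452.2 and 3287.4 to 3783.0 for macrophages and leukocytes (5 of 6). In 1 marker list, the epithelial one, the summed signals of the groups did not overlap, at 2660.1 to 3029.4 in controls and 2233.2 to 2505.2 in knockouts, mostly from Krt10, the 1 of its 4 genes above the filter; the part of these marker lists in the differences of the replication genes was not tested.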

How the data were processed

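Total RNA of 4 control and 4 Dicer knockout samples was measured on 1 Affymetrix array each. GCOS 1.3 and MAS5 are the tools named, per the submitters' processing notes. What the authors deposited is 1 linear intensity (signal) for each probe set and array. Its 2% trimmed mean was 1500 on every array, so scaling came before deposit. Further steps are not given in the sources used here.

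To each signal 73.1 was added (20% of all values lie below it) before log2 was taken, which understates differences of dim probe sets. From 45101 probe sets, 64 array controls were left out, and the 60% with the highest mean log2 values, 27022, entered the test. The platform annotation gave 1 symbol for 34945 probe sets, several for 932 and none for 9160; genes were named only where it gave 1. The brightest tested probe set stands for its gene. Knockout was compared with control in limma 3.58.1 (R 4.3.3) (lmFit, then eBayes with trend), and two-sided p-values were adjusted by Benjamini-Hochberg across the 27022 probe sets. Single genes were also compared by exact two-sided permutation of the log2 values of 4 against 4 arrays, whose smallest p is 0.0286. The fit was also run on simulated data with independent noise on each array. That run did not cover deviations shared by same-numbered arrays, and no result given here rests on it. Python 3.11.15 and matplotlib 3.10.9 drew the figures.

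For numbers 1 to 4, the control's and the knockout's deviations from their group means had correlations of 0.342, 0.189, 0.199 and 0.373, each above 0.1, so the labels' numbers were taken to pair the samples. What a number stands for is not given, and some differently numbered arrays exceeded 0.1 too (0.149, 0.133 and 0.117).

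The members and gene lists were chosen with earlier results of these data known. Values on every array are given for the member with the smallest unadjusted p in each of 10 roles; of the other lists, the gene with the smallest unadjusted p and the references Dicer1, Hmga2, Cdkn1a and E2f1 are named. Array values, means or differences of other genes, such as Mcm2, Rfc4, Rrm2, Pcna, Skp2, Cdk2, Cdc25a, Ccna2 and Ccne2, were chosen after their values were seen. RefSeq promoter windows and microRNAs are those of GRCm38.p6.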

Additional observations from a re-analysis of the deposited data

Results flagged for a closer look

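In groups of 4 arrays, the highest or lowest array was set against the others by the ratio of its gap to the whole range, against Dixon's 95% critical value. Of 78 groups, 6 were past it; chance flags about 1 in 20. Knockout 4 stood high for Chaf1b (5899.8, the others 4144.8 to 4391.8) and for Dna2 (2494.5, the others 1678.0 to 1724.5). Knockout 1 stood high for Rfc1 (4682.3, the others 3492.1 to 3677.8) and low for Rrm2 (14529.4, the others 20464.1 to 20705.7). Control 1 stood high for Lig1 (6485.0, the others 5049.9 to 5265.9), and control 3 low for Rfc5 (6821.4, the others 9000.0 to 9389.9). In 5 of these 6, all but Lig1, the array of the same number in the other group was extreme in the same direction: control 4 was the highest control for Chaf1b (6005.4) and Dna2 (2283.1), control 1 the highest for Rfc1 (4990.5) and the lowest for Rrm2 (14211.8), and knockout 3 the lowest knockout for Rfc5 (6256.8).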

How the results depend on the processing

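Of 24 alternative settings (pseudocounts of 16 and 200, other filters, scalings, variance priors, array weights, the averaged probe sets, the replicate block, arrays or pairs left out, and odd or even numbers alone), 0 called any of the 39 members. The replicate block changed no member's call; besides Hmga2 (adjusted p 0.0336, or 0.00516 in the block without pair 1) it called 1 preadipocyte marker, Dlk1. It gave 13 called probe sets over all genes, where the unpaired fit gave 1 and no filter, median centring, no variance trend, replicates 1 and 3 alone, and replicates 2 and 4 alone gave 0 each. That count ran from 0 to 2 with an array left out and from 0 to 80 with a pair left out of the block, where 0 to 1 preadipocyte markers and 0 to 1 markers of other cell types were called.

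Of the 39 members, 24 kept their direction under all 24 settings (20 below 0, 4 above) and 15 turned under at least 1; of the 10 shown on every array, Fen1 turned (-0.0296 in replicates 2 and 4 alone). The members' median was -0.0500 with probe sets averaged and -0.0519 in replicates 2 and 4 alone. It ran from -0.132 to -0.0186 with an array left out and from -0.116 to -0.0483 with a pair left out of the block, with 24 to 29 and 22 to 28 members below 0. Members whose groups did not overlap numbered 0 to 4 with an array left out and 0 to 6 with a pair left out. They numbered 9 in replicates 1 and 3 alone and 12 in replicates 2 and 4 alone. Fewer arrays overlap less by chance alone. The share of all tested genes under these settings was not counted, so these counts say nothing particular about the members.

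The median of other replication factors was 0.0424 with probe sets averaged and -0.0796 to 0.0142 with an array left out (-0.0381 to 0.0139 with a pair left out). That of G1/S control was 0.166 in replicates 1 and 3 alone, 0.180 in 2 and 4 alone, 0.0429 to 0.180 with an array left out and 0.130 to 0.154 with a pair left out. The checkpoint and repair median ran from -0.0321 to 0.0431 and the mitosis median from 0.0188 to 0.168 with an array left out. Averaging probe sets turned Lsm11 (-0.112), Brca1 (0.103) and E2f1 (0.0270). E2f1, which had -0.108 without knockout 4, also turned without control 1 (0.0266), knockout 1 (0.00297) or knockout 3 (0.000370), in the block without pair 1 (0.0768) and in replicates 2 and 4 alone (0.125). Dicer1 turned without control 3 (0.0572) and had -0.226 without control 2. Apart from the averaged probe sets, which add dimmer ones, the cause was not tested.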
